A study of Solanum lycopersicum with 24 samples.

Results

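The transcripts of 5 enzymes of the flavonol core of tomato (Solanum lycopersicum) were followed through RNA-seq libraries of type VI glandular trichome cells from leaves. They are 2 chalcone synthases, CHS1 (Solyc09g091510) and CHS2 (Solyc05g053550), flavanone 3-hydroxylase F3H (Solyc02g083860), flavonoid 3'-hydroxylase F3'H (Solyc03g115220) and flavonol synthase FLS (Solyc11g013110). The genes were chosen by locus number, and all 5 were found among the 34725 genes counted. Each passed the filter on low counts, as did 18326 genes in all. The lowest count of any member in a library was 10155, for F3'H in CHI9 replicate 2.

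The mutant genotype was af, called anthocyanin free, whose lesion lies in chalcone isomerase 1 (CHI1). CHI9 and CHI4 were complemented lines of the af mutant, labelled with the line numbers 9 and 4, and they served as its controls. The construct, its promoter, whether each line goes back to a single transformant and the number of plants pooled per sample are not stated in the labels, and no wild type was analysed here. All plants grew for 5 weeks on soil in a growth chamber. Each genotype was sampled at 4 collections, numbered 1 to 4 in the labels, so the 12 libraries comprised 4 of af, 4 of CHI9 and 4 of CHI4, or 3 per collection. A collection number was shared by the 3 genotypes, and what else differed between collections is not given. The labels call the collections independent but name no separate plants, so p-values judge differences against the spread between these samples only. For genotypes that spread includes the differences between collections. For collections it is what genotype and collection leave over, with 1 library per genotype and collection.

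Flavonol synthesis starts when chalcone synthase joins a phenylpropanoid thioester from the phenylalanine pathway with malonyl-CoA units to form naringenin chalcone. CHI1 closes the chalcone into the flavanone naringenin, F3H oxidises it to a dihydroflavonol, F3'H adds a hydroxyl to the B ring, and FLS turns dihydroflavonols into flavonols such as kaempferol and quercetin. In tomato trichomes flavonoids of this kind are stored in the gland cells beside terpenes. The af mutant is blocked at the isomerase, so its lesion sits between chalcone synthase and the other 3 enzymes.

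Libraries held 20853336 to 70949450 gene counts in af, 8993182 to 46115359 in CHI9 and 33952584 to 51990377 in CHI4. Values are CPM, gene counts relative to the library's total, after TMM scaling, a correction for library composition whose factors lay between 1.10 and 1.28 in af and between 0.853 and 0.988 in the lines. The 2 sequencing lanes of a library differed by 1.83 to 2.14 chi-square units per degree of freedom in 10 libraries, but by 7.20 in af replicate 4 and 5.19 in CHI4 replicate 4. The lane 2 to lane 1 ratio of member CPM was 0.881 to 1.23 in af replicate 4, where it followed the chromosome, with 1.23 for F3H on chromosome 2, 1.11 for F3'H on chromosome 3, 0.909 for CHS2 on chromosome 5, 0.895 for CHS1 on chromosome 9 and 0.881 for FLS on chromosome 11. Over all genes the lane 2 to lane 1 ratio of counts in that library was 0.605 on chromosome 1, 0.568 on chromosome 2, 0.509 on chromosome 3 and 0.398 to 0.408 on chromosomes 6 to 12. The ratio of member CPM was 0.972 to 0.988 in CHI4 replicate 4. CHI1 itself averaged 260.5 ± 55.8 CPM in af, against 685 ± 110 CPM in CHI9 and 831 ± 331 CPM in CHI4 (SD, n = 4 each). No af library reached the lowest line library (highest 339.9 CPM in af, lowest 418 CPM in the lines). Reads of an introduced CHI1 copy in the lines could be counted at this locus. Of the type VI gland markers, the terpene genes NDPS1, TPS19/20 and TPS12 fell in af, while the regulator MYC1 was at 583 to 794 CPM in af and 589 to 749 CPM in the lines. The 4 gland markers summed to 3848 to 5131 CPM in af, 19652 to 23888 CPM in CHI9 and 18915 to 25602 CPM in CHI4. Green leaf markers (3 Rubisco small subunit loci) summed to 227 to 306 CPM in af and 334 to 422 CPM in the lines. Acylsugar tip cell markers summed to 31.4 to 48.3 CPM in af and 71.6 to 131 CPM in the lines, with ASAT1 at most 0.729 CPM in any library. The part of these markers in the results below was not tested, and in bulk samples fewer cells of a type and less RNA per cell cannot be told apart.

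The first question was whether the 5 enzymes differ between af and the lines. None of them passed the test: 0 of 5 members were called in af against the mean of the lines by edgeR's quasi-likelihood test at a Benjamini-Hochberg adjusted p under 0.05, beside 26.5% of all genes tested. That fit held genotype only and left the differences between collections in its residual. The same count was 0 at an unadjusted p under 0.05, beside 37.5% of all genes tested, and 0 with DESeq2. It was 1 with the collection number as a block (F3'H) and 2 with library totals in place of TMM scaling (F3H and F3'H). The members' log2 differences lay between -0.17 and 0.32 with a median of -0.03, beside a median of 0.07 and a median absolute difference of 0.46 over all genes tested. The 5 transcripts summed to 14306 ± 2659 CPM in af (SD, n = 4), against 13482 ± 3552 CPM in CHI9 and 15804 ± 3007 CPM in CHI4 (SD, n = 4 each).

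The chalcone synthases catalyse the first committed step. In collections 1 to 4, CHS1 had 3399.6, 3610.4, 5134 and 4876 CPM in af, 3058, 4121, 5428 and 5212 CPM in CHI9, and 3835, 5164, 5740.4 and 5955 CPM in CHI4. The 3 genotypes overlapped, and af was below the mean log2 level of the lines in 4 of 4 collections. The log2 difference of CHS1, af minus the mean of the lines, was -0.17 ± 0.18 (SE), with a 95% interval of -0.55 to 0.20 and an edgeR adjusted p of 0.525.

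CHS2 had 2925, 2915, 3506 and 3589 CPM in af, 2241, 3282, 3571 and 3845 CPM in CHI9, and 2673, 4617, 3712 and 4438 CPM in CHI4. Its values overlapped as well, with CHI4 replicate 2 the highest of the 12 libraries. The difference was -0.13 ± 0.17 (log2, SE), interval -0.49 to 0.23, edgeR adjusted p 0.635. CHS1 and CHS2 are close paralogs, and reads that fit both could have been dropped or split, so their separate levels are uncertain. The ratio of CHS1 to CHS2 CPM was 1.31 ± 0.13 in af, 1.37 ± 0.11 in CHI9 and 1.36 ± 0.18 in CHI4 (SD, n = 4 each), a spread that covers the differences between the genotypes.

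F3H, the first oxidation after the isomerase, had 1959, 2037, 2785 and 2245 CPM in af, 1375, 1776, 2623 and 2206 CPM in CHI9, and 1744, 2114, 2615 and 2191 CPM in CHI4. The genotypes overlapped, although af was above the mean log2 level of the lines in 4 of 4 collections. The difference was 0.12 ± 0.17 (log2, SE), interval -0.24 to 0.47, edgeR adjusted p 0.661.

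F3'H had the largest fitted difference of the 5 members. It had 1527, 2262, 2508 and 2226 CPM in af, 817, 1198, 1660.2 and 2249.9 CPM in CHI9, and 1273, 1819, 2369 and 2373 CPM in CHI4. CHI9 was below both other genotypes in collections 1 to 3, and in collection 4 the 3 values lay close together. The mean was 2131 ± 422 CPM in af, 1481 ± 617 CPM in CHI9 and 1958 ± 526 CPM in CHI4 (SD, n = 4 each). The F3'H difference, af minus the mean of the lines, was 0.32 ± 0.23 (log2, SE), interval -0.16 to 0.81, edgeR adjusted p 0.331. With the collection number as a block the difference was 0.38 ± 0.12, interval 0.12 to 0.63, edgeR adjusted p 0.0220, and F3'H was then the 1 member called, beside 31.7% of all genes called in that fit. Within collections, F3'H was higher in af than in the lines in 3 of 4, with log2 differences between -0.05 and 0.62.

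FLS, which makes the flavonols themselves, had 1667.5, 2085, 3564 and 2403 CPM in af, 1405, 2094, 3274 and 2489.6 CPM in CHI9, and 1905, 2519.97, 3442 and 2718 CPM in CHI4. The 3 genotypes followed nearly the same course over the collections. The difference between af and the lines was -0.03 ± 0.22 (log2, SE), interval -0.49 to 0.44, edgeR adjusted p 0.948, and the block narrowed the interval to -0.25 to 0.18.

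**Figure D1:**
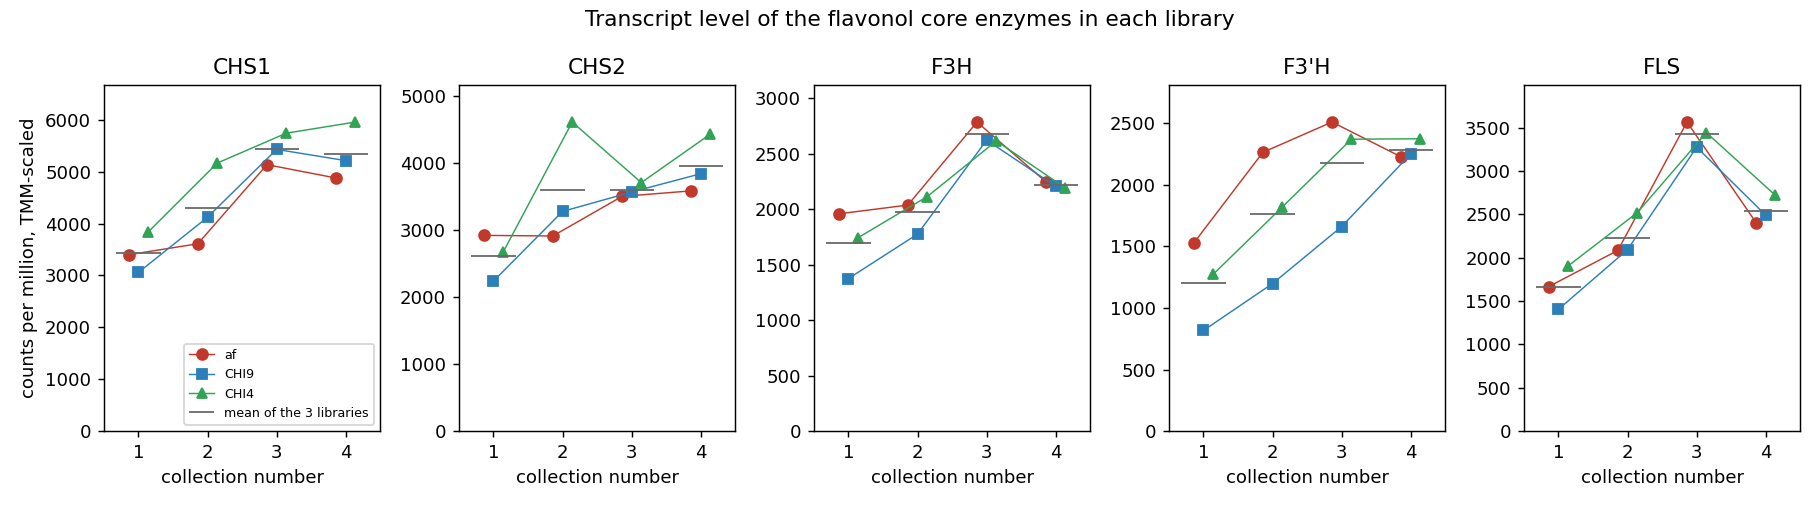
CPM after TMM scaling (vertical axes, from 0) of each member in the 12 libraries by collection number (horizontal axes), with af, CHI9 and CHI4 as circles, squares and triangles, lines joining the libraries of a genotype and dark bars at the mean of the 3 libraries. Collection 1 has the lowest mean in all 5 panels, and FLS and F3H peak in collection 3 in all 3 genotypes.

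These results depended on the scaling of the libraries. With library totals alone, the median gene moved by 0.42 on the log2 scale toward af, and the calls over all genes changed to 6616 higher and 1086 lower in af, beside 2358 higher and 2500 lower with TMM. F3H then had a difference of 0.54 (edgeR adjusted p 0.00573) and F3'H of 0.75 (0.00926), both called, while CHS1, CHS2 and FLS changed sign to 0.24, 0.29 and 0.38 without being called. Without scaling, the 5 members made up 1.73 ± 0.22% of gene counts in af, against 1.25 ± 0.28% in CHI9 and 1.40 ± 0.27% in CHI4 (SD, n = 4 each). Leaving out af replicate 4 or CHI4 replicate 4, whose lanes stood apart, left 0 of 5 members called, with FLS at -0.02 in both and F3'H at 0.30 and 0.38.

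Against each line alone the members gave the same count, and these comparisons share the af libraries. In af against CHI9, 0 of 5 members were called beside 20.5% of all genes, and in af against CHI4, 0 of 5 beside 19.8%. Both counts were 0 at an unadjusted p under 0.05 and 0 with DESeq2. F3'H had a log2 difference of 0.52 ± 0.27 (SE) in af against CHI9 (edgeR adjusted p 0.187) and 0.12 ± 0.27 in af against CHI4 (0.802). The block brought the F3'H difference from CHI9 to 0.60 (edgeR adjusted p 0.00360), and leaving out CHI9 replicate 4 brought it to 0.80 (0.0354) without the block. From CHI4 the F3'H difference with the block was 0.15, interval -0.14 to 0.45, and not called (edgeR adjusted p 0.479). The other 4 members had log2 differences of -0.07 to 0.18 from CHI9 and -0.28 to 0.06 from CHI4.

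The lines themselves were compared as CHI9 against CHI4, with 0 of 5 members called beside 0.0928% of all genes, or 17 genes. The count of members was 0 at an unadjusted p under 0.05, beside 6.16% of all genes, and 0 with DESeq2, which called 92 genes. All 5 members had lower fitted levels in CHI9, with log2 differences of -0.40 for F3'H, -0.25 for CHS2, -0.22 for CHS1, -0.19 for FLS and -0.12 for F3H, and edgeR adjusted p of 0.899 to 0.964. These values come from the fit with genotype only. With the block F3'H was at -0.44, interval -0.74 to -0.15, and still not called (edgeR adjusted p 0.347). CHI9 was below CHI4 in 4 of 4 collections for CHS1, CHS2, F3'H and FLS, and in 2 of 4 for F3H. The share of all genes with CHI9 lower in 4 of 4 collections was not counted. The members are also correlated (r of 0.672 to 0.938 over the libraries), so their directions are not separate observations.

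**Figure D2:**
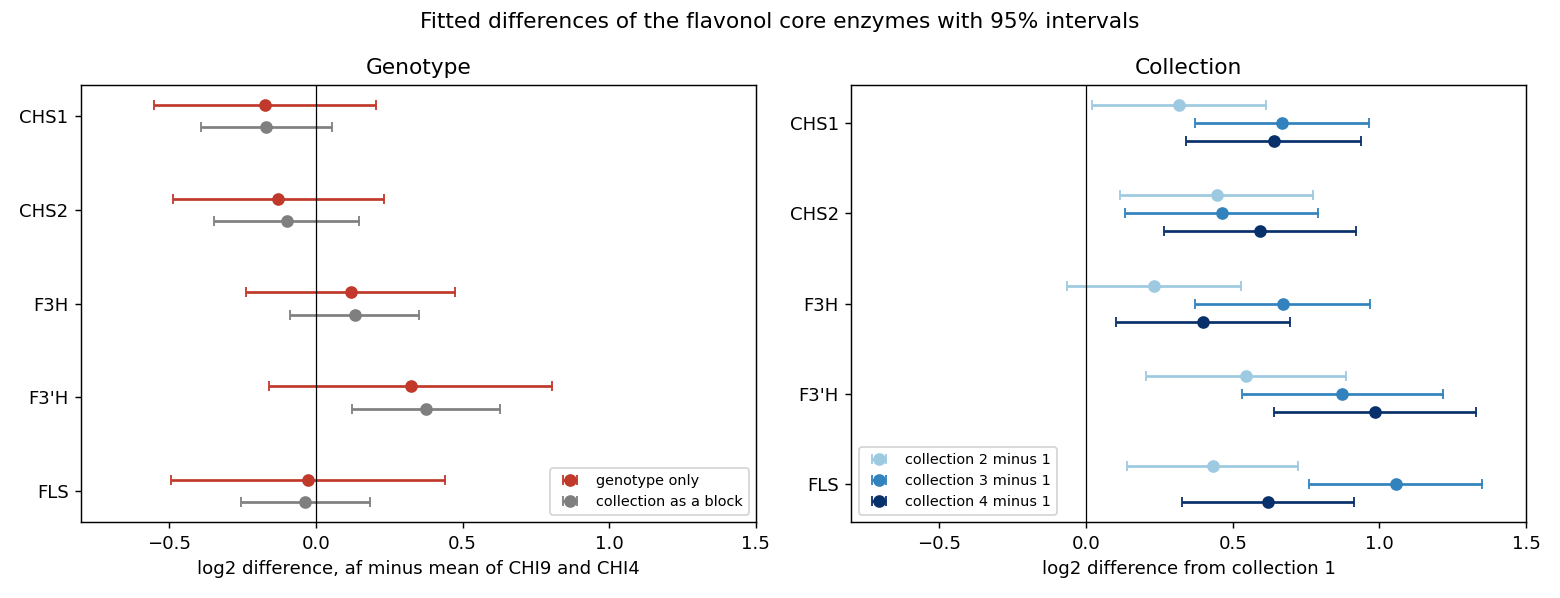
Fitted log2 differences (horizontal axes) with 95% intervals for each member, on the left af minus the mean of CHI9 and CHI4 from the fit with genotype only (red) and with collection as a block (grey), on the right collections 2, 3 and 4 minus collection 1. The left intervals include 0 except that of F3'H with the block, and the right ones lie above 0 except that of F3H in collection 2.

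The second question was whether the 5 enzymes differ between the collections, tested with genotype in the model. By edgeR's test for any difference between the 4 collections, 3 of 5 members were called, beside 1.93% of all genes tested (353 genes). The adjusted p was 0.00186 for FLS, 0.00766 for F3'H, 0.0306 for CHS1, 0.0526 for F3H and 0.148 for CHS2. Ordered by p among 18326 genes, FLS stood at 29, F3'H at 92, CHS1 at 232, F3H at 365 and CHS2 at 1010. The calls of FLS and F3'H held in each of 12 fits that left out 1 library, whereas that of CHS1 held in 3 (without CHI4 replicate 1, CHI4 replicate 2 or af replicate 2) and was lost in the other 9, with an adjusted p up to 0.106. F3H was called (0.0332) without CHI4 replicate 1. Without the genotype term 0 of 5 members and 0 genes were called by edgeR, while DESeq2 with that term called 5 of 5 members and 1137 genes.

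FLS showed the largest contrast. Averaged over the 3 genotypes it had 1659 ± 249.9 CPM in collection 1, 2233 ± 249 in collection 2, 3427 ± 146 in collection 3 and 2537 ± 163 in collection 4 (SD, n = 3 each). Collection 3 lay above the other 3 collections with no overlap, and it was the highest in each genotype. Between collections 3 and 1 the FLS difference was 1.06 ± 0.14 (log2, SE; edgeR adjusted p 0.000501), with no overlap of the libraries. FLS was 0.62 higher on the log2 scale in collection 3 than in collection 2 (adjusted p 0.0516) and lower by 0.44 in collection 4 than in collection 3 (log2 difference -0.44, adjusted p 0.169), neither of which passed the threshold.

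F3H followed the same order, with 1693 ± 295, 1976 ± 177, 2674 ± 96.2 and 2214 ± 28.0 CPM in collections 1 to 4 (SD, n = 3 each). All 3 libraries of collection 3 were above those of collections 2 and 4, which themselves did not overlap. F3H was higher in collection 3 than in collection 1 by 0.67 ± 0.14 (log2, SE; edgeR adjusted p 0.0166).

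F3'H kept its level in collection 4. It averaged 1206 ± 359.6 CPM in collection 1, 1759.7 ± 535 in collection 2, 2179 ± 455 in collection 3 and 2283 ± 78.8 in collection 4 (SD, n = 3 each). The libraries of collection 1 were below all those of collections 3 and 4. The difference from collection 1 was 0.98 ± 0.17 in collection 4 (log2, SE; edgeR adjusted p 0.00987) and 0.87 ± 0.16 in collection 3 (0.00766). Much of the spread within collections 1 to 3 came with CHI9, the lowest library in each.

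CHS1 also levelled off, with 3431 ± 389, 4299 ± 792, 5434 ± 303 and 5348 ± 552 CPM in collections 1 to 4 (SD, n = 3 each). Its libraries in collections 3 and 4 overlapped each other and lay above all 3 of collection 1. The CHS1 difference was 0.67 ± 0.14 between collections 3 and 1 (log2, SE; edgeR adjusted p 0.0169) and 0.64 ± 0.14 between collections 4 and 1 (0.0517). CHS2 had 2613 ± 346, 3605 ± 896, 3597 ± 105 and 3958 ± 435 CPM in collections 1 to 4, with CHI4 at 4617 CPM the highest in collection 2. The CHS2 difference was 0.46 ± 0.16 between collections 3 and 1 (adjusted p 0.159) and 0.59 ± 0.16 between collections 4 and 1 (0.103). The ratio of CHS1 to CHS2 CPM was 1.51 ± 0.04 in collection 3 and 1.20 ± 0.07 in collection 2 (SD, n = 3 each), without overlap.

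In the 6 pairwise comparisons of collections, 4 of 5 members rose in collection 3 against 1, beside 1.91% of all genes called, and 1 of 5, F3'H, rose in collection 4 against 1, beside 0.387%. No member was called in collection 2 against 1 (0.0873% of all genes), 3 against 2 (0.415%), 4 against 2 (0.131%) or 4 against 3 (1.21%). At an unadjusted p under 0.05 these 4 counts were 4, 3, 2 and 1, beside 7.72%, 11.4%, 9.75% and 11.1% of all genes tested. With DESeq2 they were 0, 2, 0 and 1, without a count over all genes beside them. These comparisons share libraries. The rise in collection 3 against 1 remained called for FLS in each of 12 fits without 1 library. It was lost for F3'H without CHI9 replicate 1 (adjusted p 0.0761), for CHS1 without CHI9 replicate 1, CHI9 replicate 3 or af replicate 3, and for F3H without any of those 3 or CHI4 replicate 3. The rise of F3'H in collection 4 against 1 was lost without CHI9 replicate 4 (0.138). With library totals in place of TMM, which moved the median gene by -0.13 in collection 3 against 1, FLS was at 0.92, F3'H at 0.74, F3H at 0.54 and CHS1 at 0.53, all 4 still called. The gland markers summed to 5094 to 23888 CPM in collection 3 and 4357 to 25602 CPM in collection 1. The leaf markers summed to 227 to 378 and 242 to 394 CPM. Each range runs from an af library to a line library, so the overlap of these ranges cannot tell whether the collections differed. By edgeR, 0 of 4 gland, 0 of 3 tested acylsugar and 0 of 3 leaf markers were called between the collections, beside 1.93% of all genes.

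With 1 library per genotype and collection, whether the collections differed more in 1 genotype than in another was not tested. Collection 1 was the lowest in all 3 genotypes for CHS1, F3H, F3'H and FLS, and in CHI9 and CHI4 for CHS2. The share of all genes with collection 1 lowest in all 3 genotypes was not counted, and the members are correlated with each other.

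The split of the variation shows the same contrast per gene. Of the sum of squares of log2 CPM over 12 libraries, collection accounted for 91.0% in FLS, 80.5% in F3H, 78.4% in CHS1, 62.8% in CHS2 and 61.6% in F3'H, beside a median of 23.5% over all genes tested. Genotype accounted for 28.0% in F3'H, 16.1% in CHS1, 15.9% in CHS2, 9.84% in F3H and 5.57% in FLS, beside a median of 32.6%. Taking collection into the model lowered edgeR's biological coefficient of variation to 13.5% from 25.9% for FLS and to 15.3% from 26.9% for F3'H, while the median gene had 26.5% with collection and 29.6% without. These shares are descriptions of 12 libraries and carry no test.

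**Figure D3:**
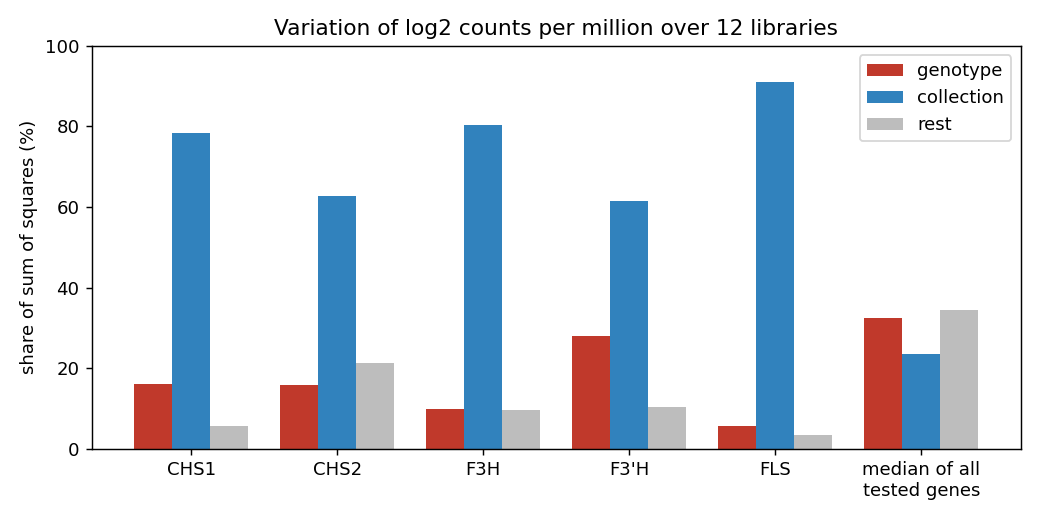
Share of the sum of squares of log2 CPM over the 12 libraries (vertical axis, percent) that falls to genotype (red), collection (blue) and the rest (grey) for each member and for the median of all tested genes. The collection bar is the tallest in all 5 members, from 61.6% in F3'H to 91.0% in FLS, beside 23.5% for the median gene.

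The 5 transcripts varied together. Over the 12 libraries the Pearson r of log2 CPM lay between 0.672 and 0.938 in the 10 pairs, and between 0.703 and 0.972 after each genotype's mean was taken off. The points share their collections and genotypes, so r describes these libraries only. Among the 11783 other genes averaging 5 CPM or more, the gene most like FLS was F3H (r = 0.94) and the gene most like CHS2 was CHS1 (r = 0.89). The gene most like CHS1 was Solyc12g036220 (r = 0.93), with FLS in place 4, CHS2 in place 5, F3H in place 33 and F3'H in place 142. The genes most like F3H and F3'H were Solyc07g054440 (r = 0.97) and Solyc07g040680 (r = 0.93), whose products the files do not name. In the order for F3H, FLS stood in place 4, F3'H in 30, CHS1 in 61 and CHS2 in 329. In the order for F3'H, F3H stood in place 42, FLS in 202, CHS1 in 296 and CHS2 in 363. The ratio of FLS to CHS1 CPM was 0.63 ± 0.05 in collection 3, against 0.48 ± 0.02 in collection 1, 0.52 ± 0.05 in collection 2 and 0.48 ± 0.02 in collection 4 (SD, n = 3 each), so FLS and CHS1 did not move in strict proportion.

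Other loci of the pathway changed in af against the lines. Of 7 listed loci, 4 fell in af, 0 rose and 3 were not called, beside 26.5% of all genes called. The 4 include CHI1, the mutated gene itself, whose difference is tied to the choice of genotypes. With CHI1 in it, the list's median log2 difference was -0.65, beside -0.03 for the members and 0.07 over all genes tested. CHI1, the isomerase that is mutated in af, was lower in af than in the lines by 1.53 on the log2 scale (edgeR adjusted p 7.76e-05). Less transcript in af and added transcript from an introduced copy in the lines cannot be told apart here. F3'5'H, which adds B-ring hydroxyls toward delphinidin-type pigments, had 0.323, 1.51, 0.115 and 0.549 CPM in af, against 4.66, 12.2, 2.31 and 3.34 CPM in CHI9 and 4.05, 1.23, 1.76 and 1.62 CPM in CHI4, and it fell by 2.45 (adjusted p 0.00846). Its log2 difference was -3.13 in af against CHI9 (edgeR adjusted p 0.00400) and -1.78 in af against CHI4 (0.0757), the second not called. F3'5'H had 5 to 95 counts per library in af and 40 to 181 in the lines, so these differences rest on low counts. The 3-O-glucosyltransferase locus Solyc10g083440 and the rhamnosyltransferase locus Solyc09g059170, annotated as enzymes that attach sugars to flavonoids, fell by 0.65 (0.00959) and 0.74 (0.000805). With library totals alone both were still lower, at -0.24 and -0.32, but not called (0.257 and 0.0511).

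CHIL, a chalcone isomerase-like protein without isomerase activity that assists chalcone synthase in other plants, had 657, 902, 2136 and 1123 CPM in af, 860.04, 1553, 2790.5 and 1930.0 CPM in CHI9, and 1511, 1901, 2644 and 1992 CPM in CHI4. Its log2 difference in af was -0.65 (edgeR adjusted p 0.175), with the block -0.72 (0.000226) and without af replicate 3 -1.08 (0.0161). With the block 5 loci of the list, CHI1 among them, were lower and 1, DFR, higher, beside 31.7% of all genes called in that fit. DFR and ANS lead from dihydroflavonols to anthocyanidins. DFR had 2.63, 1.95, 2.01 and 1.29 CPM in af, 0, 0, 0.425 and 0.515 CPM in CHI9, and 0.127, 1.85, 0.180 and 0.300 CPM in CHI4, a difference of 2.31 (edgeR adjusted p 0.0527, with the block 0.0339, and 0.00998 without CHI4 replicate 2). DFR had only 33 to 236 counts per library in af and 0 to 60 in the lines, so its difference rests on low counts. ANS was at 4.31 to 5.13 CPM in af and 1.55 to 4.41 CPM in the lines (0.69, adjusted p 0.144).

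Of the pathway loci, 1 of 7 was called between collections, beside 1.93% of all genes, and it was CHIL (edgeR adjusted p 0.000761). CHIL rose in collection 3 against 1 by 1.40 ± 0.17 (log2, SE; adjusted p 0.000352), with means of 2523.5 ± 344 CPM in collection 3 and 1009 ± 446 CPM in collection 1 (SD, n = 3 each). Its log2 CPM had r = 0.86 with FLS over the 12 libraries and r = 0.98 after genotype means were taken off. CHI1 was not called between collections (adjusted p 0.175).

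**Figure D4:**
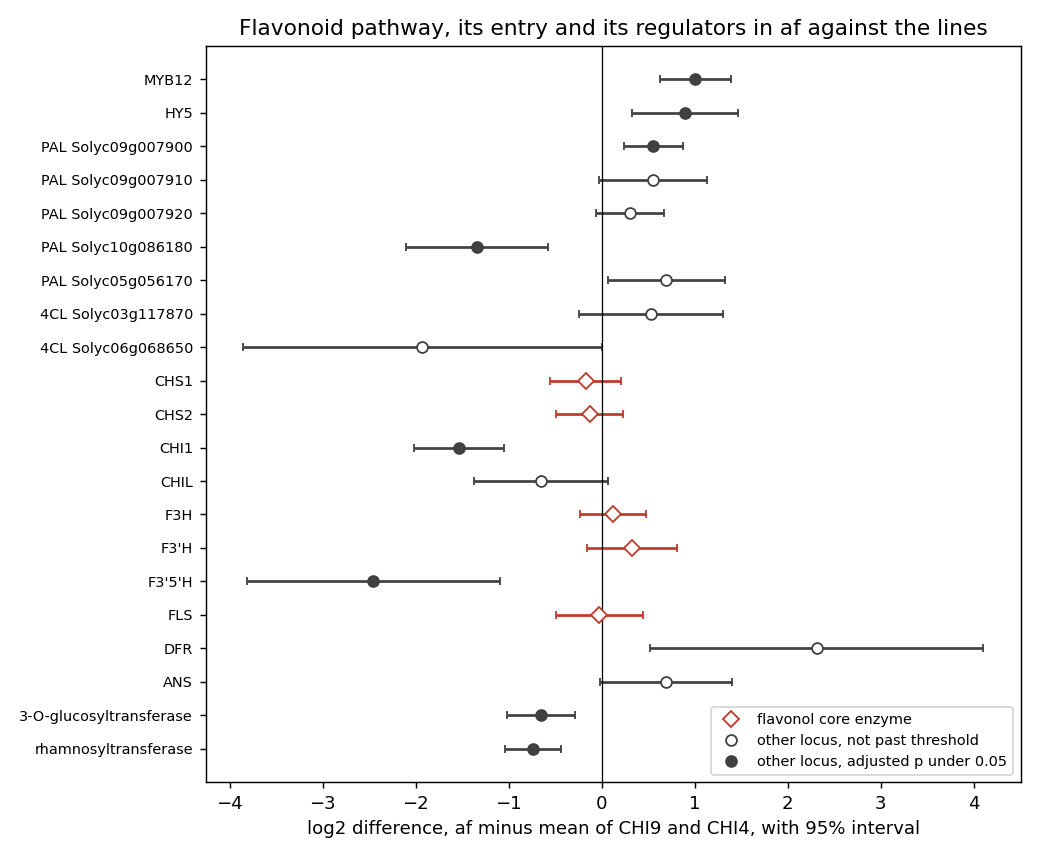
Log2 difference, af minus the mean of CHI9 and CHI4, with 95% intervals (horizontal axis) for the regulators, the entry loci, the 5 members (red diamonds) and the other pathway loci, in the order of the pathway from top to bottom, filled where the edgeR adjusted p is under 0.05. The 5 members lie between -0.17 and 0.32 and none is filled, while CHI1, F3'5'H and both sugar transferase loci are filled on the lower side and MYB12 and HY5 on the higher side. The C4H locus, at 0 counts in all af libraries, is not drawn. The fit held genotype only, without the collection number.

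Upstream of chalcone synthase, phenylalanine ammonia-lyase (PAL), cinnamate 4-hydroxylase (C4H) and 4-coumarate-CoA ligase (4CL) supply its thioester substrate. Of 8 such loci tested, 1 rose and 2 fell in af, beside 26.5% of all genes called, and with the block 3 rose and 2 fell, beside 31.7%. PAL Solyc09g007900 averaged 349 ± 67.4 CPM in af and 238 ± 39.6 CPM in the lines (SD, n = 4 and n = 8), a rise of 0.55 ± 0.15 (log2, SE; edgeR adjusted p 0.00980) that was not called without af replicate 4 (0.0637). PAL Solyc10g086180 averaged 153 ± 63.1 CPM in af and 396 ± 174 CPM in the lines and fell by 1.34 (adjusted p 0.0134, and 0.0508 without af replicate 2). The C4H locus Solyc05g047530 had 0 counts in all 4 af libraries and 8 to 32 counts in 7 of 8 line libraries, with 0 in CHI9 replicate 2 (adjusted p 0.00488), so it was hardly detected in any genotype. Between collections 1 of 8 entry loci was called, PAL Solyc09g007910 (adjusted p 0.00962), which unlike FLS was lowest on average in collection 3 (397 ± 182 CPM) and highest in collection 4 (766 ± 180 CPM; SD, n = 3 each).

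MYB12, the R2R3-MYB factor that activates chalcone synthase and flavonol synthase genes in Arabidopsis and tomato fruit skin, rose in af. It had 198, 180.3, 137 and 160.2 CPM in af, 70.4, 78.1, 57.6 and 89.3 CPM in CHI9, and 69.2, 141, 62.4 and 109 CPM in CHI4. All af values but that of collection 3 were above all line values. The MYB12 difference was 1.01 ± 0.18 (log2, SE; edgeR adjusted p 0.000479), and the call held in each of 12 fits without 1 library. HY5, a bZIP factor of light signalling that acts on the same genes in Arabidopsis, averaged 39.2 ± 19.9 CPM in af and 21.2 ± 4.91 CPM in the lines (SD, n = 4 and n = 8) and rose by 0.90 ± 0.27 (log2, SE; adjusted p 0.0206), a call lost without af replicate 1 (0.118) or af replicate 4 (0.0561). Neither factor was called between collections (0 of 2 by edgeR, adjusted p 0.140 for MYB12 and 0.495 for HY5). In collection 3, where FLS and F3H were highest, MYB12 was at its lowest in each genotype. Over the 12 libraries the r of MYB12 with the members was -0.18 to 0.39.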

How the data were processed

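Per the labels, total RNA of type VI gland cells was sequenced from TruSeq libraries on 2 lanes each. The authors deposited raw read counts per gene, and the submitters' processing notes name Trimmomatic, TopHat2, SAMtools and HTSeq. The sources used here give no version, genome build or strand setting, so a gene's reads cannot be told apart from those of an overlapping or antisense gene. Of all reads, 8.49% to 12.2% fell in no gene, 3.67% to 6.68% were ambiguous and 4.68% to 7.56% were not uniquely aligned, and all these stayed out of library sizes and tests. Counts of 1 to 10 were even in 61.4% to 71.8% of cases, so halved counts were an alternative.

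Lanes were summed to 12 libraries. edgeR 4.0.16 in R 4.3.3 (filterByExpr, TMM, robust quasi-likelihood fits) tested 18326 of 34725 genes, with Benjamini-Hochberg adjustment over all of them. Genotypes were compared in a fit of genotype alone (9 residual degrees of freedom) and collections in a fit of genotype plus collection (6). Standard errors were taken as the size of the log2 difference over the square root of F. DESeq2 1.42.0 was an alternative, beside other scalings, filters, lanes and each library left out. The labels give a collection number shared by the genotypes. It was left out of the main genotype fit and entered as a block in an alternative fit. Same-collection pairs of libraries had correlations of 0.00254 to 0.464 in their deviations from genotype means (median 0.289). The median was -0.0923 for other pairs. The steps were also run on simulated counts, built without differences in library composition and, for the genotypes, without differences between collections. That run therefore cannot decide on the scaling or the block. A count of 3 per library is worth 0.0423 to 0.334 CPM, which covers counting error only.

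Members, lists and the rule for named genes (all members, pathway loci and regulators, called entry loci, and the most alike gene per member) were chosen with earlier results of these data known. Names of loci follow the tomato annotation as generally used, since the files give locus numbers only. The symbols of 4 of 5 members (not FLS) were found in the RefSeq table of assembly SLM_r2.1, on the chromosome in the locus number. No gene lengths were used, so CPM is compared within a gene only.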

Additional observations from a re-analysis of the deposited data

Results flagged for a closer look

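In groups of 4 libraries, 2 of 42 sets of values had 1 library far from the other 3, where chance gives about 1 in 20. DFR was at 1.85 CPM (60 counts) in CHI4 replicate 2 and at 0.127 to 0.300 CPM (4 to 12 counts) in the other 3 CHI4 libraries. HY5 was at 24.7 CPM in CHI9 replicate 2, the shallowest library, and at 16.7 to 18.0 CPM in the other 3 CHI9 libraries. None of the 5 enzymes was set apart in this way in any genotype. Without CHI4 replicate 2 the DFR difference between af and the lines was 3.10 (log2, edgeR adjusted p 0.00998), against 2.31 (0.0527) with it.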

How the results depend on the processing

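Of 1344 values computed under alternatives, 1210 kept their direction and their side of the threshold, or stayed within 1.5 times for a count. With library totals in place of TMM, 7702 genes and 2 members were called in af against the mean of the lines (F3H 0.54 and F3'H 0.75), 2 members in af against CHI9 (F3H 0.57 and F3'H 0.91) and 1 in af against CHI4 (F3H 0.51). Members that changed sign without being called were CHS1 (0.24), CHS2 (0.29) and FLS (0.38) against the mean of the lines, CHS1 (0.32) and CHS2 (0.39) against CHI9, and CHS1 (0.17), CHS2 (0.19) and FLS (0.32) against CHI4. In the same setting CHS2 was at -0.15 in collection 3 against 2 and CHS1 at 0.058 in collection 4 against 3. This setting differed from the main fit in the scaling only. The median gene moved by 0.42 in af against the lines, by -0.17 in collection 3 against 2 and by 0.084 in collection 4 against 3. With the collection number as a replicate block, 1 member was called in af against the mean of the lines (F3'H, 0.38) and 1 in af against CHI9, CHS2 was at 0.029 in af against CHI9, and 36 genes were called in CHI9 against CHI4. The block changed no other call of a member. CHS2 in af against CHI9, at -0.00049 with both lanes, was at 0.025 with lane 1 alone and 0.0012 with halved counts.

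DESeq2 called 92 genes in CHI9 against CHI4, and 5 members and 1137 genes between collections. It called 5 members in collection 4 against 1, 2 in 3 against 2 and 1 in 4 against 3. For these pairs of collections the share of all genes called by DESeq2 was not counted. Without the filter on low counts 5 members and 1402 genes were called between collections, 4 members in collection 4 against 1 and 1 in 3 against 2. In collection 4 against 1, edgeR with DESeq2 size factors called 2 members, lane 1 alone 3 and halved counts 3. In collection 3 against 2, halved counts called 1 member, and so did lane 2 alone for af replicate 4 and CHI4 replicate 4 together. Without the genotype term 0 members and 0 genes were called between collections, 0 members in collection 3 against 1 and 0 in 4 against 1, and CHS2 was at -0.0033 in 3 against 2. That fit leaves the genotype differences in its residual. The cause of these changes was not tested.

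Leaving out 1 library at a time gave 156 (without CHI9 replicate 3) to 723 (without CHI4 replicate 1) genes called between collections, and 172 to 235 without CHI4 replicate 3, CHI4 replicate 4, CHI9 replicate 4, af replicate 3 or af replicate 4. It gave 9 to 16 genes in CHI9 against CHI4. Members called were 0 to 1 in af against CHI9, 1 to 4 in collection 3 against 1, 0 to 3 in 4 against 1 and 0 to 1 in 3 against 2. FLS lay between -0.27 and 0.12 in af against the mean of the lines, between -0.37 and 0.029 against CHI4 and between -0.17 and 0.28 against CHI9. In af against CHI4, F3H lay between -0.058 and 0.16 and F3'H between -0.038 and 0.25. In af against CHI9, CHS2 lay between -0.15 and 0.093 and CHS1 between -0.21 and 0.043. F3H lay between -0.28 and 0.026 in CHI9 against CHI4. CHS2 lay between -0.12 and 0.17 in collection 3 against 2, CHS1 between -0.087 and 0.013 and F3'H between -0.13 and 0.29 in collection 4 against 3. None of the members whose sign turned in these fits was called in them.

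Depth did not limit the members, whose lowest count in a library was 10155, and their precision rests on 4 libraries per genotype and 3 per collection.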
